A study of Homo sapiens with 18 samples.

Results

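The mitochondrial respiratory chain is assembled from proteins of 2 genomes, and the genes for its nuclear-encoded subunits were followed here in human liver cells kept at low oxygen. Members were taken by symbol alone: protein-coding genes whose symbols start with NDUFA, NDUFB, NDUFC, NDUFS or NDUFV (complex I, without the NDUFAF assembly factors), SDHA to SDHD (complex II), CYC1 or UQCR (complex III), COX4I, COX5, COX6, COX7 or COX8 (complex IV), and ATP5F1, ATP5M or ATP5P (complex V). Of 271 rows with such symbols, 181 were pseudogenes or other rows not protein-coding in GENCODE 29, which left 90 members among the 61806 genes of the count table. They comprised 38 genes of complex I (7 core and 31 accessory), 4 of complex II, 10 of complex III, 19 of complex IV and 19 of complex V, spread over 22 chromosomes. NDUFA4 and its relative NDUFA4L2 were placed with complex IV, since the NDUFA4 protein is a subunit of that complex despite its name. In all, 84 members passed the filter on low counts and were tested. The other 6, COX6A2, COX7A1, COX7B2, COX8C, ATP5MGL and ATP5MF-PTCD1, had from 0 to 92 counts summed over all 18 libraries.

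HepG2 is an established human liver cancer cell line. The APOA4-KO line was derived from it with CRISPR-Cas9 and guides to exon 1 to exon 3 of APOA4, the gene of apolipoprotein A-IV. It was grown from single colonies, so an effect of the knockout and a property of the clone cannot be told apart. Each line gave 3 poly(A) RNA-seq libraries at each of 3 points, making 6 groups: cells not yet in hypoxia (0 h), cells held for 24 h at 1% oxygen, and cells held there for 48 h. No cells were kept in normal oxygen for 24 h or 48 h, so time in culture and low oxygen cannot be told apart. The labels do not say whether the 3 libraries of a group came from separate cultures, and p-values measure only the spread between them.

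Complexes I and II pass electrons from NADH and succinate to ubiquinone, complex III passes them on to cytochrome c, complex IV hands them to oxygen, and complex V (ATP synthase) uses the resulting proton gradient to make ATP. In low oxygen, cells are known to exchange a few subunits: the hypoxia-inducible factor HIF-1 raises COX4I2, an alternative to COX4I1 in complex IV, and NDUFA4L2, a relative of NDUFA4. Liver cells rely on the chain for the ATP spent on glucose, lipid and plasma protein synthesis. Transcript levels say nothing by themselves of the amount or activity of the assembled complexes.

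The 18 libraries held from 76481820 to 91604947 counts. All 10 HepG2 marker genes were present in every library and together took from 51200 to 77000 CPM (counts scaled to a common library size), against 28.2 to 53.7 CPM for 5 fibroblast markers, 8.45 to 16.1 CPM for 4 endothelial markers and 38.6 to 81.8 CPM for 5 immune markers. Of these genes, PDGFRB (2236 to 4215 counts), CD68 (2373 to 5277), PECAM1 (374 to 734), CD14 (292 to 767), VWF (195 to 689) and COL1A1 (55 to 449) had counts in all 18 libraries. The others, DCN, KDR and CD3E among them, had no count in at least 1 library, and the part of these cell types in the results was not tested. APOA4 itself, the targeted gene, was still transcribed: 607, 662 and 702 counts in APOA4-KO against 702, 755 and 799 in HepG2 at 0 h, and 551 to 648 against 1673 to 1968 at 48 h. A frameshift can leave the transcript in place, so these counts do not check the genotype.

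The hypoxia isoform NDUFA4L2 showed the largest rise in low oxygen among members with counts in every library. In HepG2 its level was 0.285, 0.411 and 0.651 CPM at 0 h, 1.92, 1.07 and 1.34 CPM at 24 h, and 0.351, 1.03 and 0.794 CPM at 48 h. The 24 h libraries all lay above the 0 h libraries, while the 48 h libraries overlapped them. In APOA4-KO it was 0.303, 0.178 and 0.15 CPM at 0 h, 1.39, 1.58 and 1.43 CPM at 24 h, and 2.53, 2.18 and 1.40 CPM at 48 h, with no overlap between 0 h and either later time. The rise in HepG2 was 3.21-fold at 24 h (log2 fold change 1.68 ± 0.40 SE, edgeR quasi-likelihood test with Benjamini-Hochberg adjusted p = 0.003), and the 48 h value of 0.69 ± 0.40 did not pass the test (adjusted p = 0.24 by edgeR). In APOA4-KO the rise was 6.96-fold at 24 h and 9.67-fold at 48 h (log2 2.80 ± 0.42 and 3.27 ± 0.43, edgeR adjusted p = 1.8e-05 and 2.9e-06). At 48 h the knockout line was 2.81-fold above HepG2 (log2 1.49 ± 0.39, edgeR adjusted p = 0.0035), and the change from 0 h to 48 h differed between the lines by 2.58 ± 0.57 on the log2 scale (edgeR adjusted p = 0.0014). No difference between the lines passed the test at 24 h (log2 0.02 ± 0.38) or at 0 h (-1.10 ± 0.42, edgeR adjusted p = 0.059). The 0 h difference did pass without replicate 1 of HepG2 (-1.34, adjusted p = 0.034) or without replicate 1 of APOA4-KO (-1.45, adjusted p = 0.032).

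NDUFA4, a subunit of complex IV, was far more abundant and was lower in hypoxia in APOA4-KO at both times and in HepG2 at 24 h (log2 -0.54, -0.44 and -0.26). NDUFA4 stood at 45.0, 48.4 and 47.2 CPM in untreated HepG2, at 38.2, 40.7 and 38.4 CPM at 24 h and at 42.2, 45.3 and 38.8 CPM at 48 h. In APOA4-KO the values were 38.9, 38.3 and 37.0 CPM, then 24.2, 25.8 and 28.4 CPM, then 31.7, 27.6 and 25.2 CPM. The knockout line lay below HepG2 at each time with no overlap, with log2 fold changes of -0.30, -0.58 and -0.58 in time order (SE 0.074 to 0.075, edgeR adjusted p = 0.0041, 2.1e-06 and 2e-06). Per length (FPKM, counts scaled to exon length and library size), NDUFA4L2 made up 1.14% ± 0.468 (SD, n = 3) of the summed FPKM of both genes in HepG2 before hypoxia, then 4.33% ± 1.33 and 2.01% ± 0.907 at the later times. In APOA4-KO the same share was 0.65% ± 0.272, 6.46% ± 0.59 and 8.02% ± 1.40, so NDUFA4 transcripts remained the large majority in every group.

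COX4I2 was close to the limit of detection. HepG2 had 0, 0 and 0 counts at 0 h, 19, 5 and 0 counts at 24 h, and 5, 10 and 17 counts at 48 h. APOA4-KO had 6, 0 and 0 counts at 0 h, 11, 25 and 8 counts at 24 h, and 33, 26 and 23 counts at 48 h. Against a floor of 3 counts per library at 0 h, COX4I2 was at least 3.33-fold higher in HepG2 at 48 h and at least 2.81-fold higher at 24 h, where 1 library was still at 0. In HepG2 both times passed the test (edgeR adjusted p = 0.027 and 0.023), but the 24 h call was lost without any 1 of the 0 h libraries or without replicate 1 of 24 h (adjusted p from 0.069 to 0.14) and with a replicate block (0.051), and the 48 h call without any 1 of the 0 h libraries or without replicate 3 of 48 h (0.055 to 0.063). In APOA4-KO the 48 h rise passed the test (edgeR adjusted p = 0.034), but not when any 1 library other than replicate 1 of 0 h was left out (adjusted p from 0.053 to 0.10) and not with no filter on low counts (0.054). The 24 h rise in APOA4-KO did not pass the test, but did so without replicate 1 of 0 h (edgeR adjusted p = 0.013), which held all counts of that group. No difference between the lines passed at any time (edgeR adjusted p = 0.15, 0.64 and 0.31 at 0 h, 24 h and 48 h). At 48 h the libraries of the lines did not overlap, and with the compared groups alone that difference was just called (log2 1.66 ± 0.64, edgeR adjusted p = 0.05 as rounded). Its share of the FPKM of COX4I1 and COX4I2 together rose from 0% to 0.412% ± 0.232 in HepG2 and from 0.0818% ± 0.142 to 1.41% ± 0.247 in APOA4-KO at 48 h. Counts of 4, 8 and 12 are over-represented in these tables, so a low count need not equal that number of read pairs.

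COX4I1, the common form, was at 187 to 200 CPM in HepG2, at 185 to 194 CPM in APOA4-KO at 0 h and at 165 to 186 CPM in that line in hypoxia. Its log2 fold changes at 24 h and 48 h in HepG2 were -0.02 ± 0.04 and 0.01 ± 0.04. Levels of the other tissue-specific isoforms were at or near 0. COX7A1 had 4 counts in each of 2 libraries and COX8C 4 counts in 1, while COX6A2 and COX7B2 had none, which allows up to 3 counts per library. COX6B2, known from testis, ranged from 0 to 14 counts in HepG2 and from 0 to 25 in APOA4-KO, with 0 in all 3 knockout libraries at 0 h. Its 48 h counts in the knockout line were 8, 25 and 4. The mean level there was at least 4.69-fold higher than at 0 h, against the floor of 3 counts per library. That mean rests largely on the library with 25 counts, and the one with 4 lay close to the floor. The call at 24 h in that line (edgeR adjusted p = 0.023) was lost without any 1 of the 0 h libraries or without replicate 2 of 24 h (0.057 to 0.063).

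**Figure D1:**
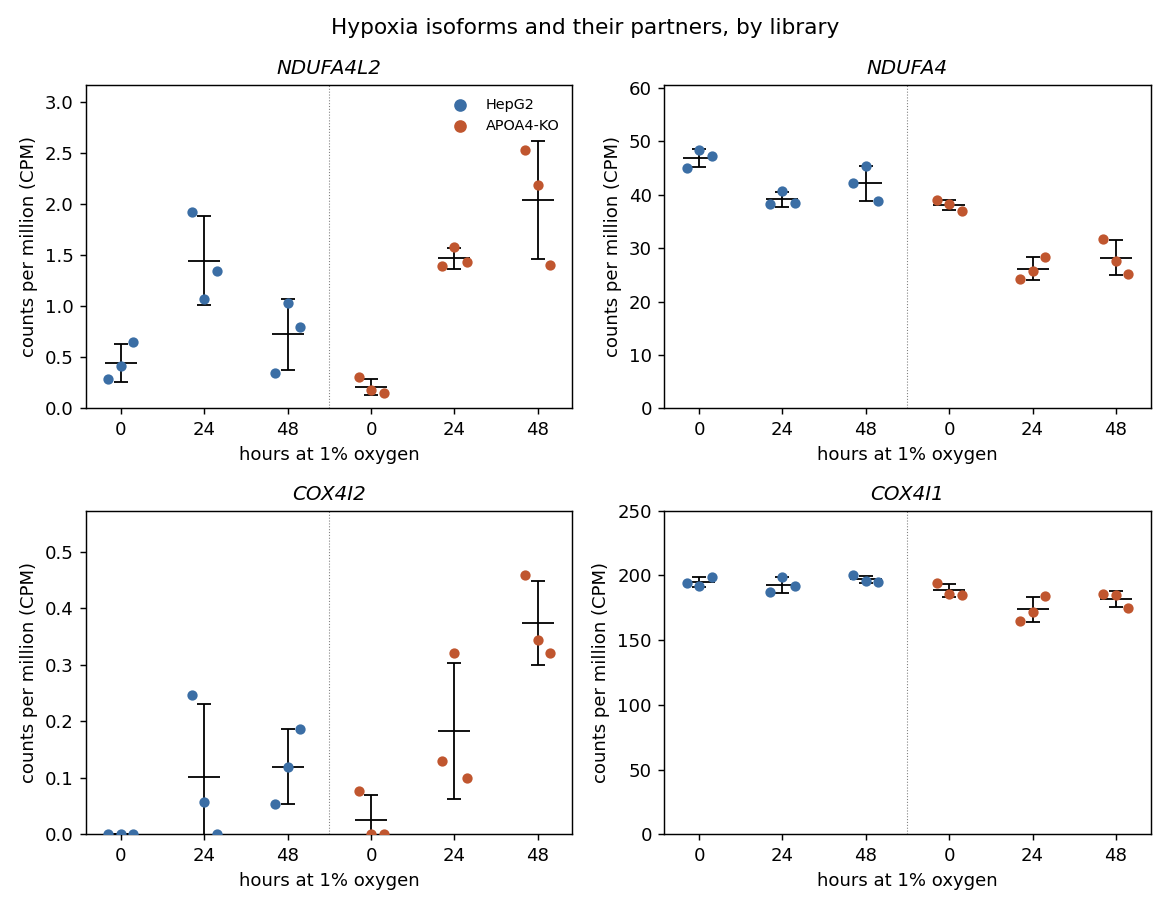
Levels of NDUFA4L2, NDUFA4, COX4I2 and COX4I1 in CPM (linear axes from 0) against hours at 1% oxygen, with 1 point per library (3 per group) and black bars for the mean ± SD. NDUFA4L2 reaches 2.53 CPM in APOA4-KO at 48 h while NDUFA4 stays between 24.2 and 48.4 CPM, and COX4I2 never exceeds 0.458 CPM.

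The promoters of this pair are shown because NDUFA4L2 rose and NDUFA4 fell in APOA4-KO. RefSeq gives 300 bases around each start (250 before and 50 after, GRCh38.p14): chr12:57240713-57241012 on the minus strand for NDUFA4L2 and chr7:10940104-10940403 on the minus strand for NDUFA4, both read 5′ to 3′ in the direction of the gene. Capitals mark the core of the hypoxia response element, searched as ACGTG or GCGTG on both strands.
NDUFA4L2: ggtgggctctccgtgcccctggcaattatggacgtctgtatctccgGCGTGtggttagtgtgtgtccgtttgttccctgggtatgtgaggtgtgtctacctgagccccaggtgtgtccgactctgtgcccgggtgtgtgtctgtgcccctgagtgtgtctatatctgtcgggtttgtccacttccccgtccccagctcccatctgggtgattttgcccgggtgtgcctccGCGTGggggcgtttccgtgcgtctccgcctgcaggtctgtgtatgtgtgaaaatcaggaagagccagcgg
NDUFA4: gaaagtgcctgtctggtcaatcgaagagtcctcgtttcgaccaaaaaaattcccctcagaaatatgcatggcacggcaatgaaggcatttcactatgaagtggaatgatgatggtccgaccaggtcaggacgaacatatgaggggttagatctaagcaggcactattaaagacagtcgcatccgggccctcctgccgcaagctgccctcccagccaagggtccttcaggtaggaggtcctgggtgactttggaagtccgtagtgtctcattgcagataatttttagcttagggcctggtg
The NDUFA4L2 window held 2 such cores, starting at positions -204 and -20 from the start, and the NDUFA4 window held none. The core is short and common: it stood in 48.4% of all 27305 RefSeq promoters of that length, and in 43 of the 72 member promoters in the table (59.7%). A sequence match describes these letters and is not a binding site. The ETS core CCGGAAG, read by GABPA, was in 20 of the 72 member promoters (27.8%) and in 10.7% of all promoters, and the E-box CACGTG, which contains ACGTG, in 9.72% against 7.43%.

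Many subunit genes fell in hypoxia at 24 h in both lines, and in APOA4-KO many were still lower at 48 h. A gene was called at an adjusted p under 0.05 over all 19743 genes tested. In HepG2 at 24 h, 39 of the 84 tested members were lower and 5 higher, where 18.3% of all genes tested were lower and 11.4% higher. The median log2 fold change was -0.19 over the members and -0.04 over all genes. By 48 h only 10 members were lower and 7 higher (all genes: 14.6% and 13.1%), with a median of -0.03, the same as the all-gene median to 2 decimals. In APOA4-KO, 59 members were lower and 5 higher at 24 h (all genes: 22.8% and 21.5%) with a median of -0.33, and 43 were lower and 11 higher at 48 h (25.9% and 23.9%) with a median of -0.17 beside -0.07 for all genes. The HepG2 48 h shares were therefore close to the background, and the other 3 sets of shares lay well above it on the lower side. Few changes were large. Past a log2 fold change of 1 in either direction there were 2 members in HepG2 at 24 h (3.08% of all genes), 1 at 48 h (2.18%), 2 in APOA4-KO at 24 h (5.88%) and 4 at 48 h (12.2%). NDUFB2 in APOA4-KO at 48 h was the single fall among them, and the rest were NDUFA4L2, COX4I2 and COX6B2. Fewer cells or less RNA per cell of a type cannot be told apart in bulk samples.

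The 2 time courses share no libraries. Of the 39 members called lower in HepG2 at 24 h, 36 were also called lower in APOA4-KO, which is 92.3% of the HepG2 list and 61.0% of the knockout list of 59. Of all tested members, 70.2% were lower in APOA4-KO at 24 h and 51.2% at 48 h. The same overlap over all genes tested was not computed. At 48 h, 6 members were lower in both lines (ATP5PF, NDUFA2, NDUFA11, NDUFS7, NDUFS8 and NDUFV1), 60.0% of the 10 in HepG2 and 14% of the 43 in APOA4-KO. NDUFA4L2 and UQCRB were higher in both at 24 h (UQCRB in APOA4-KO not with the length trend removed, edgeR adjusted p = 0.34), and COX4I2, NDUFS1 and UQCRC2 in both at 48 h.

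**Figure D2:**
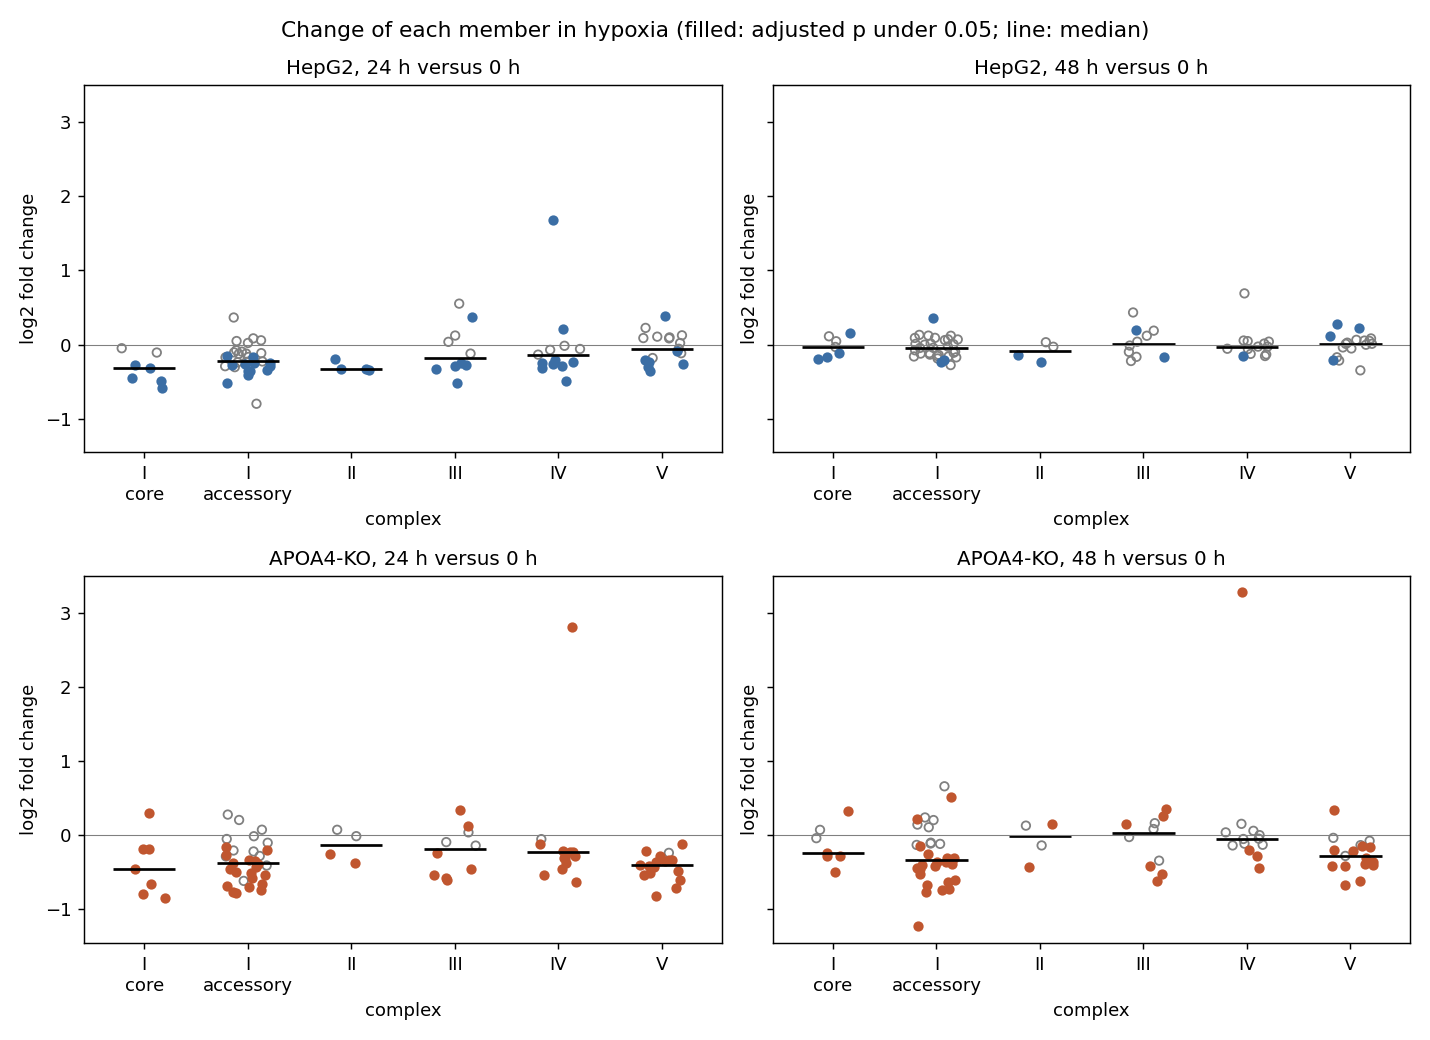
Log2 fold change against 0 h for each tested member (1 point per gene, filled where the adjusted p was under 0.05), by complex, with a line at the median of all tested members of that complex. COX4I2 and COX6B2, which had groups at the counting floor, are counted in the medians but not drawn. Most filled points at 24 h lie below 0 in both lines, and the high point of complex IV is NDUFA4L2.

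Complex I, the entry point for NADH, is the largest complex here and gave the most genes called lower. In HepG2 17 of its 38 genes were lower and none higher at 24 h (44.7% lower, beside 46.4% of members and 18.3% of all genes). At 48 h 5 were lower and 2 higher (13.2% lower, beside 14.6% of all genes). In APOA4-KO 25 were lower and 1 higher at 24 h (65.8% lower, beside 70.2% of members and 22.8% of all genes). At 48 h 24 were lower and 3 higher (63.2% lower, beside 51.2% and 25.9%). The medians in APOA4-KO were -0.38 and -0.29. Among the 7 core subunits, which hold the flavin and iron-sulphur centres, 6 fell in APOA4-KO at 24 h. NDUFS8, which carries iron-sulphur clusters, was at 130, 120 and 126 CPM in HepG2 at 0 h, 93.3, 89.2 and 86.0 CPM at 24 h, and 115, 112 and 109 CPM at 48 h. In APOA4-KO it went from 91.6, 93.6 and 90.1 CPM to 49.2, 50.1 and 53.1 CPM and then to 67.9, 62.6 and 64.3 CPM. The 24 h libraries were the lowest of each line, and all knockout libraries lay below all but the 24 h libraries of HepG2. Its log2 fold changes at 24 h were -0.49 ± 0.04 in HepG2 and -0.85 ± 0.04 in APOA4-KO, and the lines differed in that change by -0.36 ± 0.06. NDUFS7, another iron-sulphur subunit, fell by 0.59 and 0.80 on the log2 scale in HepG2 and APOA4-KO at 24 h (edgeR adjusted p = 1.8e-08 and 9.7e-11), though 49.1% of its exon bases are shared with overlapping genes.

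NDUFS1, the largest core subunit, was the exception. It was at 90.6, 86.9 and 94.1 CPM in HepG2 at 0 h, 85.2, 81.2 and 85.6 CPM at 24 h and 104, 98.8 and 99.5 CPM at 48 h. The knockout libraries held 93.3, 84.0 and 89.4 CPM, then 105, 115 and 109 CPM, then 106, 111 and 117 CPM. NDUFS1 thus rose in APOA4-KO at both times (log2 0.30 ± 0.05 and 0.32 ± 0.05, edgeR adjusted p = 2.2e-05 and 9.4e-06), and its change to 24 h differed between the lines by 0.41 ± 0.07 (edgeR adjusted p = 7e-05). With trends over both gene length and GC content removed, the 24 h change in APOA4-KO became -0.07 and the line difference in that change 0.04 (edgeR adjusted p = 0.79), while the 48 h rise was 0.14 (adjusted p = 0.03).

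Of the 31 accessory subunits, 19 were lower in APOA4-KO at 24 h and 20 at 48 h (61.3% and 64.5%, beside 22.8% and 25.9% of all genes). In HepG2 12 and 2 were lower (38.7% and 6.45%, beside 18.3% and 14.6% of all genes). NDUFB2, a small membrane-arm subunit, showed the largest fall of all members. It was at 17, 16.4 and 17 CPM in HepG2 at 0 h, 13.3, 13.4 and 11.3 CPM at 24 h and 16.0, 15.7 and 14.6 CPM at 48 h. In APOA4-KO it was at 12.2, 11.2 and 12.4 CPM, then 6.71, 6.32 and 8.02 CPM, then 5.82, 5.38 and 4.07 CPM. The knockout 48 h libraries were lower than every other library. The fall there was to 0.427 of the 0 h level (log2 -1.23 ± 0.11, edgeR adjusted p = 2.9e-08), whereas HepG2 gave -0.12 ± 0.11 at 48 h (adjusted p = 0.50 by edgeR). The change differed between the lines by -1.11 ± 0.16 (edgeR adjusted p = 1.4e-05). Overlapping genes, among them ADCK2 and NDUFB2-AS1, share 35.9% of the NDUFB2 exon bases, and whether counting used strand is not given in the sources used here. NDUFC2 (-0.77), NDUFA2 (-0.74), NDUFS6 (-0.72) and NDUFB7 (-0.67) followed it in APOA4-KO at 48 h. NDUFS4, an accessory subunit needed for a stable complex, rose in that comparison (0.51 ± 0.16, edgeR adjusted p = 0.011), but not past the test with library size as the only scaling (0.35, adjusted p = 0.074) or without replicate 2 of the 0 h group (0.41, adjusted p = 0.061). The read-through gene NDUFC2-KCTD14, whose exons all overlap NDUFC2 or KCTD14, ranged from 182 to 1100 counts within the knockout 0 h group and was 1.14 ± 0.47 above HepG2 at 48 h on the log2 scale and did not pass (edgeR adjusted p = 0.051).

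Complex II, succinate dehydrogenase, also belongs to the citric acid cycle and is the single complex with no subunit from the mitochondrial genome. All 4 of its genes were lower in HepG2 at 24 h, beside 18.3% of all genes. The log2 fold changes were -0.33 for SDHA, -0.34 for SDHB, -0.33 for SDHC and -0.20 for SDHD. In the knockout line at 24 h SDHB and SDHC fell (50.0%, beside 22.8% of all genes), and SDHA and SDHD did not pass the test. SDHA, the flavoprotein that oxidises succinate, was at 219, 207 and 219 CPM in HepG2 at 0 h, 174, 172 and 166 CPM at 24 h and 200, 190 and 196 CPM at 48 h. APOA4-KO libraries were at 215, 213 and 210 CPM, then 211, 204 and 217 CPM, then 228, 242 and 237 CPM. The lines overlapped at 0 h and were apart at 24 h and 48 h, when APOA4-KO was 23.6% and 20.7% higher (log2 0.31 ± 0.03 and 0.27 ± 0.03, edgeR adjusted p = 8e-08 and 3.7e-07). The change differed between the lines by 0.32 ± 0.04 to 24 h and 0.29 ± 0.04 to 48 h (edgeR adjusted p = 9.8e-06 and 2.7e-05). Within APOA4-KO, the 48 h rise of 0.15 became -0.01 with library size as the only scaling. SDHC, a membrane anchor, went the opposite way in the knockout line, from 172, 171 and 172 CPM at 0 h to 129, 134 and 135 CPM and then 128, 125 and 129 CPM. In HepG2 it returned from 153, 157 and 161 CPM at 24 h to 195, 189 and 195 CPM at 48 h, close to the 202, 193 and 197 CPM of 0 h, and APOA4-KO stood at 0.659 of the HepG2 level at 48 h (log2 -0.60 ± 0.03, edgeR adjusted p = 5.5e-13).

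Complex III split by subunit. UQCRQ, a small ubiquinone-binding subunit, was lower in APOA4-KO at each time. HepG2 libraries were at 25.6, 27.0 and 28.5 CPM at 0 h, 17.7, 20.0 and 18.9 CPM at 24 h and 22.9, 24.3 and 25.0 CPM at 48 h. Knockout libraries were at 15.7, 16.7 and 17 CPM, then 9.71, 10.5 and 13 CPM, then 13.8, 11.3 and 12 CPM. Already before hypoxia this was the largest difference between the lines among the members called (log2 -0.72 ± 0.09, edgeR adjusted p = 5.3e-06). UQCRB, another small subunit, was higher instead, by 0.30, 0.26 and 0.54 on the log2 scale at 0 h, 24 h and 48 h (edgeR adjusted p = 0.023, 0.029 and 9.1e-05), although the first 2 calls depended on the settings. The 0 h call was lost with the length trend removed (0.26, adjusted p = 0.056), without replicate 2 or 3 of HepG2 (adjusted p = 0.095 and 0.10) and without replicate 2 of APOA4-KO (0.075). The 24 h call was lost without replicate 1 or 2 of HepG2 (adjusted p = 0.13 and 0.09) and without replicate 3 of APOA4-KO (0.13). At 24 h, where the libraries overlap, the value was -0.01 with the length trend removed and -0.31 with length and GC trends removed. The core proteins UQCRC1 and UQCRC2, relatives of a processing peptidase, were not lower at 48 h in APOA4-KO. UQCRC1 went from a log2 fold change of -0.46 ± 0.02 at 24 h to 0.16 ± 0.02 at 48 h, which came to 0.00 with library size as the only scaling, and UQCRC2 rose by 0.12 ± 0.03 and 0.26 ± 0.03. UQCR11 and UQCR10 were at -0.52 and -0.61 in that line at 48 h. UQCRHL is a near copy of UQCRH, and how reads that match both were counted is not given in the sources used here.

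**Figure D3:**
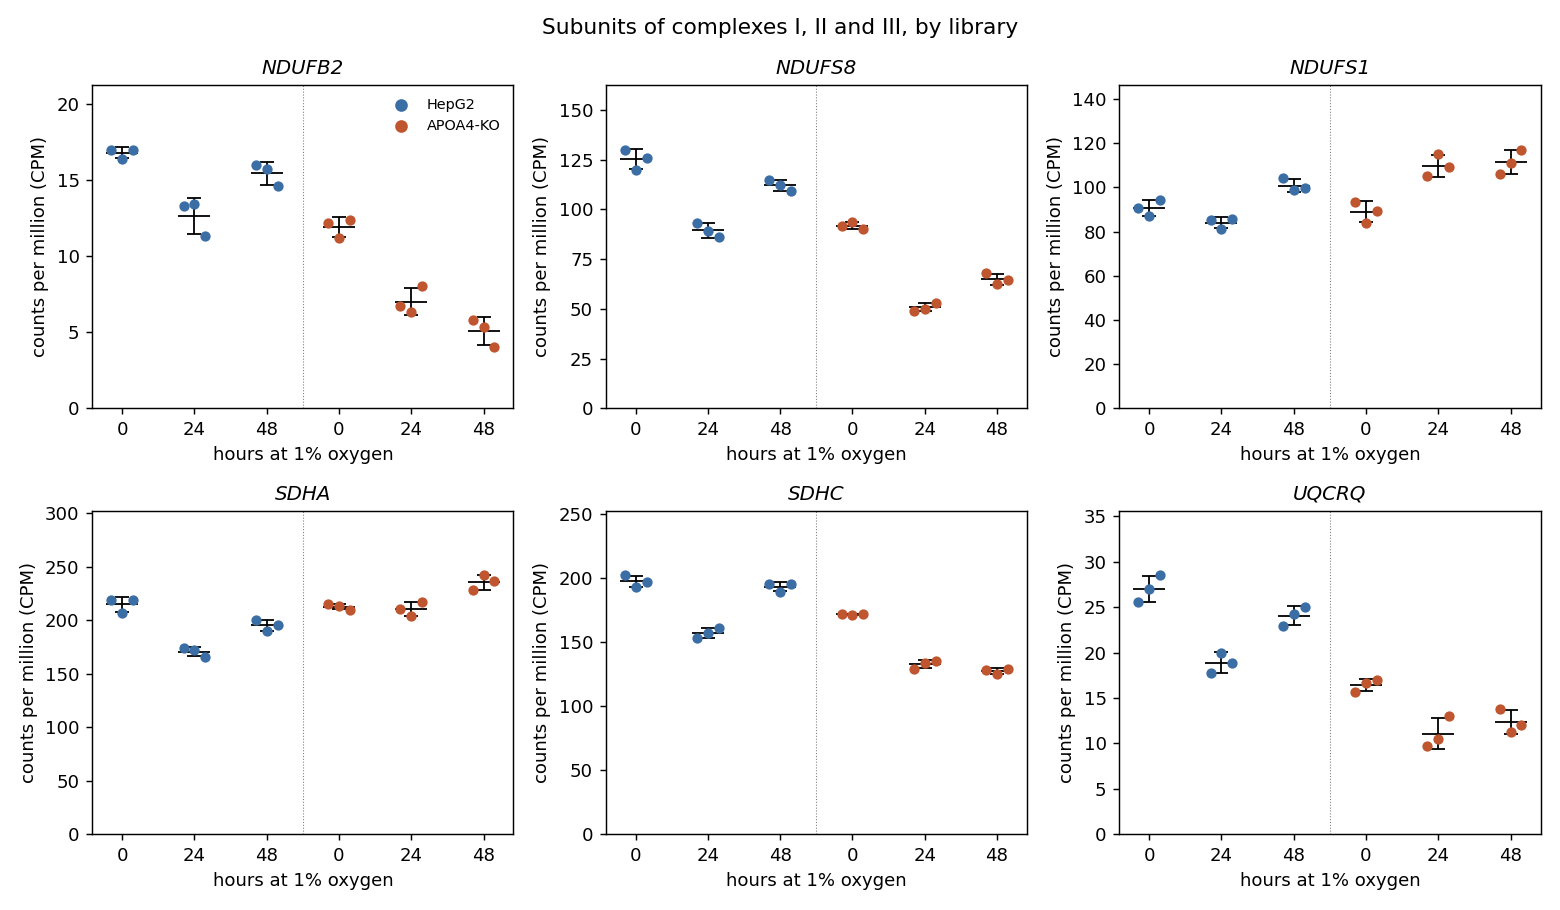
Levels of NDUFB2, NDUFS8, NDUFS1 (complex I), SDHA, SDHC (complex II) and UQCRQ (complex III) in CPM (linear axes from 0) against hours at 1% oxygen, with 1 point per library and black bars for the mean ± SD (n = 3). NDUFB2 falls to between 4.07 and 5.82 CPM in APOA4-KO at 48 h, while in that line NDUFS1 stays between 84.0 and 117 CPM and SDHA between 204 and 242 CPM.

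In complex IV, 15 of the 19 genes were tested. At 24 h, 7 were lower and 3 higher in HepG2 (46.7% and 20.0%, beside 18.3% and 11.4% of all genes). In APOA4-KO 11 were lower and 2 higher at that time (73.3% and 13.3%, beside 22.8% and 21.5%). At 48 h calls were even, with 1 in each direction in HepG2 and 3 in APOA4-KO, and the shares called lower (6.67% and 20.0%) lay below those of all genes (14.6% and 25.9%). COX8A, a small structural subunit, was at 53.3, 53.9 and 52.6 CPM in HepG2 at 0 h, 37.7, 38.0 and 37.5 CPM at 24 h and 46.4, 47.9 and 48.8 CPM at 48 h. In APOA4-KO it was at 39.0, 36.6 and 37.7 CPM, then 28.2, 28.7 and 30.5 CPM, then 42.5, 37.4 and 36.4 CPM. Both lines were therefore lowest at 24 h, and the 48 h knockout libraries overlapped those of 0 h (log2 0.04 ± 0.05, and -0.12 from FPKM). COX7A2L, a factor that joins complexes III and IV into supercomplexes, fell by 0.64 on the log2 scale in APOA4-KO at 24 h and was at -0.05 ± 0.04 at 48 h (edgeR adjusted p = 5.4e-11 and 0.33). The fall at 24 h in HepG2 was 0.23 (log2 -0.23 ± 0.04), and the lines differed in it by -0.40 ± 0.05 (edgeR adjusted p = 6.7e-06). COX6A1 and COX6B1 were lower in APOA4-KO at all 3 times, by log2 fold changes between -0.36 and -0.42, of which the 0 h values were already -0.38 and -0.41.

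In complex V, the ATP synthase, the median log2 difference between the lines was -0.01 at 0 h and -0.41 at 24 h. At 0 h single genes differed in both directions, with 3 higher (ATP5F1A, ATP5F1C and ATP5PB) and 4 lower of 17 tested. These were 17.6% and 23.5%, beside 12.9% and 17.6% of all genes. In HepG2 6 were lower and 1 higher at 24 h and 1 lower and 3 higher at 48 h (35.3% and 5.88% lower, beside 18.3% and 14.6% of all genes). In APOA4-KO 16 of the 17 were lower at 24 h and 12 at 48 h (94.1% and 70.6%, beside 22.8% and 25.9% of all genes). For 12 genes the change to 24 h was lower in APOA4-KO than in HepG2 by the test of the difference itself, and for 9 genes at 48 h, with 1 higher (all genes: 15.4% and 17.8% lower). ATP5F1B, the catalytic beta subunit, had the highest level per length of all members, which in HepG2 was 406 ± 9.53 FPKM (SD, n = 3) before hypoxia, then 335 ± 2.79 and 399 ± 5.14 FPKM. The corresponding values in APOA4-KO were 409 ± 5.34, 317 ± 2.77 and 285 ± 4.64 FPKM. ATP5PB, of the peripheral stalk, was at 104, 104 and 103 CPM in HepG2 at 0 h and at 116, 118 and 116 CPM in APOA4-KO, and fell in the latter to 77.4, 86.7 and 82.5 CPM at 24 h, when HepG2 stood at 105, 105 and 104 CPM. ATP5F1E, the small epsilon subunit, rose in HepG2 (0.39 ± 0.08 and 0.28 ± 0.08 on the log2 scale) and fell in APOA4-KO at 24 h (-0.28 ± 0.08), and the change differed between the lines by -0.66 ± 0.11 (edgeR adjusted p = 0.00015). Overlap with TUBB1 covers 23.2% of its exon bases. For ATP5ME, in the membrane part, the change to 24 h differed most between the lines (-0.94 ± 0.22, edgeR adjusted p = 0.0022). Its levels were only 2.11 to 4.67 CPM, and 61.6% of its exon bases overlap MYL5.

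The c subunit, which forms the rotating ring of ATP synthase, comes from 3 genes that encode the same mature protein, and these genes parted in the knockout line. ATP5MC1 was at 47.5, 41.5 and 44.8 CPM in HepG2 at 0 h, 34.4, 37.6 and 32.4 CPM at 24 h and 46.5, 43.1 and 46.4 CPM at 48 h. In APOA4-KO it went from 35.4, 38.0 and 34.4 CPM to 19.9, 23.0 and 22.9 CPM and then 24.8, 20.6 and 22.3 CPM, at which point it was at 0.498 of the HepG2 level (log2 -1.01 ± 0.08, edgeR adjusted p = 1.5e-09). HepG2 recovered by 48 h and APOA4-KO did not. ATP5MC3, the most abundant of the 3, followed the same course: 177, 174 and 177, then 142, 138 and 147, then 166, 184 and 178 CPM in HepG2, and 158, 159 and 151, then 102, 109 and 112, then 121, 118 and 113 CPM in APOA4-KO. ATP5MC2 did not. It was at 79.1, 70.0 and 74.3 CPM in HepG2 at 0 h and 77.1, 79.0 and 77.2 CPM at 48 h, and in APOA4-KO at 69.9, 64.9 and 68.5 CPM at 0 h, 51.7, 51.3 and 58.5 CPM at 24 h and 91.1, 82.2 and 82.9 CPM at 48 h. The last 3 libraries were above all others. From 0 h to 48 h in the knockout line, ATP5MC2 rose by 0.33 ± 0.05 on the log2 scale (edgeR adjusted p = 3.4e-05), while ATP5MC1 and ATP5MC3 fell by 0.67 and 0.41. Tested as a line difference, the change to 48 h gave 0.27 ± 0.08 for ATP5MC2, -0.69 ± 0.11 for ATP5MC1 and -0.41 ± 0.06 for ATP5MC3 (edgeR adjusted p = 0.0085, 3.3e-05 and 1.5e-05). With library size as the only scaling, the ATP5MC2 line difference was 0.10 (edgeR adjusted p = 0.34) and its rise in APOA4-KO 0.18 (adjusted p = 0.0093), and its excess of 0.14 ± 0.05 over HepG2 at 48 h turned to -0.02.

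**Figure D4:**
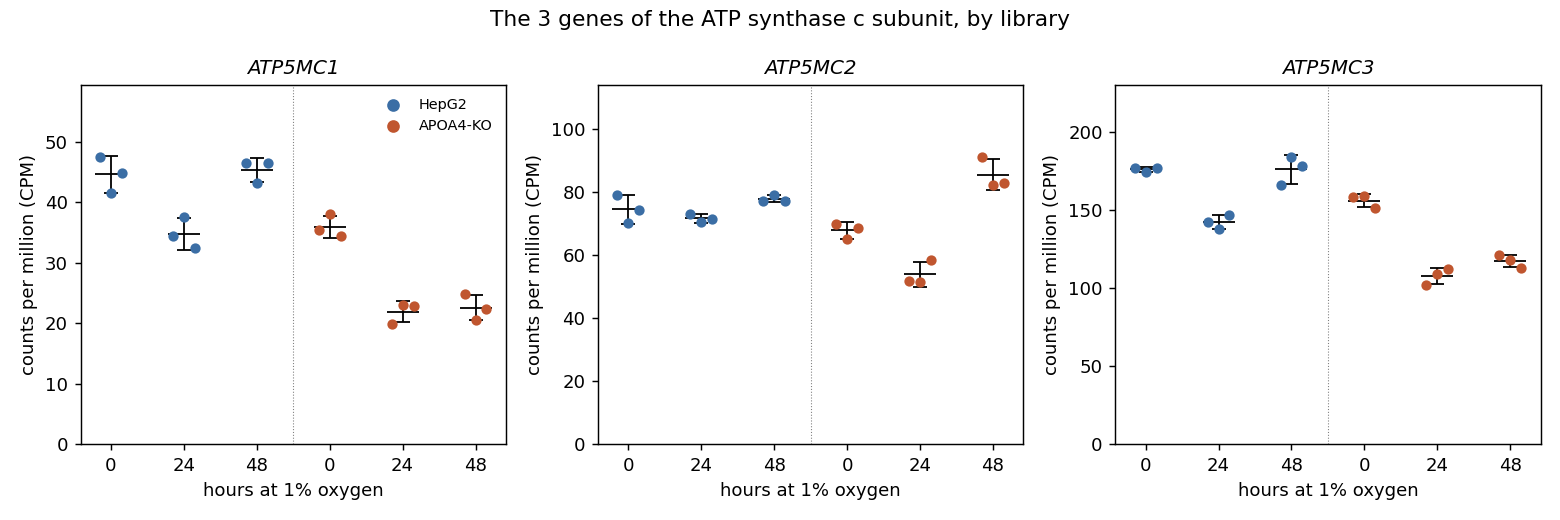
Levels of ATP5MC1, ATP5MC2 and ATP5MC3 in CPM (linear axes from 0) against hours at 1% oxygen, with 1 point per library and black bars for the mean ± SD (n = 3). At 48 h in APOA4-KO, ATP5MC2 is at 82.2 to 91.1 CPM, above its 0 h libraries, while ATP5MC1 and ATP5MC3 remain below theirs.

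RefSeq promoters of ATP5MC1 (chr17:48892537-48892836, plus strand) and ATP5MC2 (chr12:53676034-53676333, minus strand; both GRCh38.p14) are shown because these genes make the same mature protein and moved apart. Capitals again mark ACGTG or GCGTG on either strand.
ATP5MC1: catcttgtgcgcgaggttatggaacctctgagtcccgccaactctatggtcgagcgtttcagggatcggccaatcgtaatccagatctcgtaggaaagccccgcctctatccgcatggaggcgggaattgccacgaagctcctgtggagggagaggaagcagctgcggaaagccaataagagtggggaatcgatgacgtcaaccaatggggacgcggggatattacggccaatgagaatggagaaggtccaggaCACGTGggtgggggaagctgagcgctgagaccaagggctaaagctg
ATP5MC2: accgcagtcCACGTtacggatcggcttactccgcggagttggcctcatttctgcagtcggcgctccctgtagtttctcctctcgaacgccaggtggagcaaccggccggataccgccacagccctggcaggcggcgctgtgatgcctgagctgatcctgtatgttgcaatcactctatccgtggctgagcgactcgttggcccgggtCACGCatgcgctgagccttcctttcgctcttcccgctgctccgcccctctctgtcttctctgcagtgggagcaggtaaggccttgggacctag
Each window held 2 matches. Those of ATP5MC1 are a single CACGTG just after the start, read on both strands, and those of ATP5MC2 lie at -241 and -43. The part of these matches in the courses of the 2 genes was not tested. ATP5MC3 and COX4I2 were not in the promoter table.

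Set against HepG2 at the same time, APOA4-KO had lower levels of many subunit genes already before hypoxia and of most of them in hypoxia. At 0 h 38 members were lower and 4 higher (all genes: 17.6% and 12.9%), with a median log2 difference of -0.16 against -0.01 over all genes. At 24 h 63 were lower and 5 higher (24.6% and 23.6%), with a median of -0.35. At 48 h 55 were lower and 10 higher (27.3% and 23.5%), with a median of -0.32 beside -0.04 for all genes. Past a log2 difference of 1 there were no members at 0 h or 24 h (all genes: 4.31% and 7.77%) and 4 at 48 h (13.6%): NDUFB2 and ATP5MC1 lower, NDUFA4L2 and COX6B2 higher. The COX6B2 call rests on 8, 25 and 4 counts in APOA4-KO against 0, 2 and 0 in HepG2 (edgeR adjusted p = 0.05), and it was lost with a replicate block (0.065), with library size as the only scaling (0.056), with no filter on low counts (0.084) and when any 1 of the 6 libraries other than replicate 2 of HepG2 was left out (0.053 to 0.18). By complex, the share called lower at 48 h was 71.1% for complex I, 50.0% for complex II, 40.0% for complex III, 60.0% for complex IV and 76.5% for complex V.

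**Figure D5:**
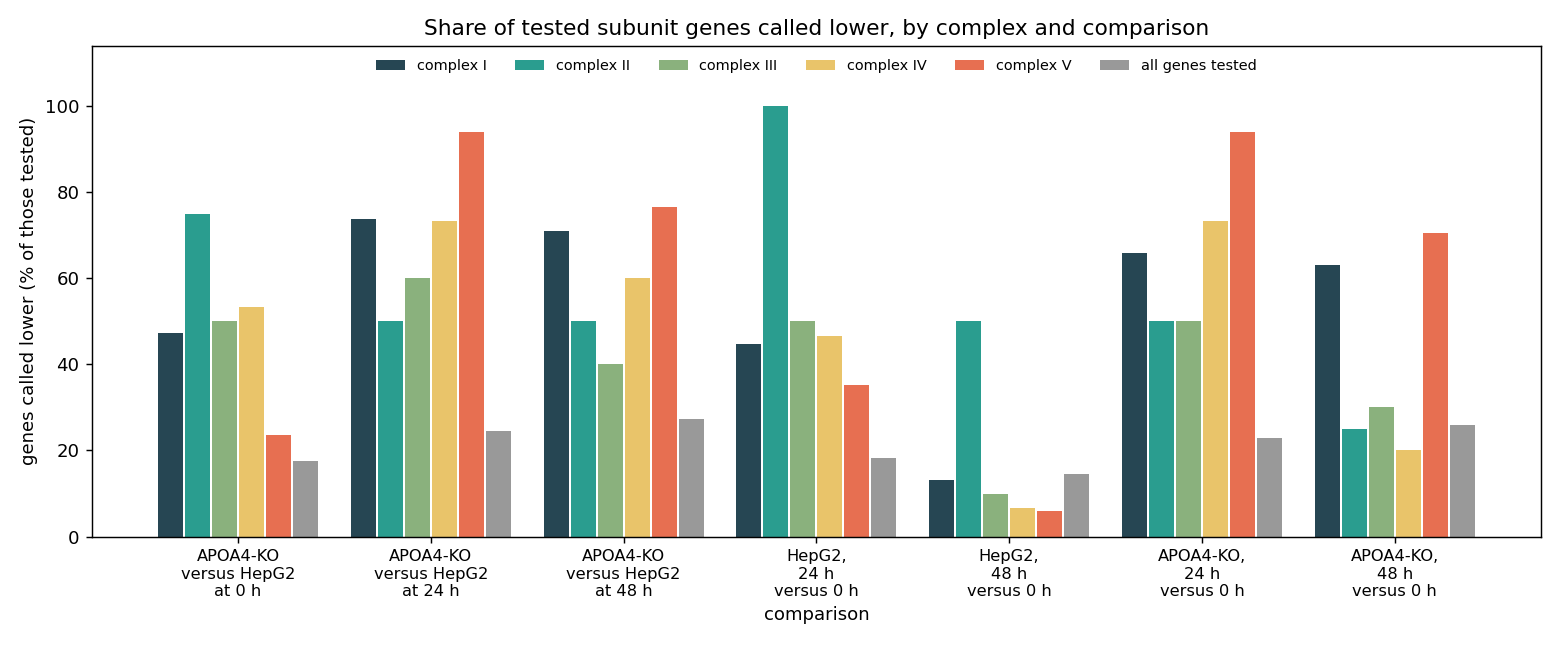
Percent of tested genes called lower (adjusted p under 0.05, bars from 0) in each of 7 comparisons, by complex and over all 19743 genes tested. All bars of the complexes exceed the grey bar at 24 h, and at 48 h in HepG2 complex II alone does so. In APOA4-KO at 48 h complexes I (63.2%) and V (70.6%) stand far above the 25.9% of all genes, complex III (30.0%) is near it, and complexes II (25.0%) and IV (20.0%) lie below it.

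For many members the response itself differed between the lines, by a test of the 2 changes from 0 h against each other. To 24 h the change was lower in APOA4-KO for 31 members and higher for 3 (NDUFS1, SDHA and SDHD), where 15.4% of all genes were lower and 16.8% higher. To 48 h it was lower for 30 and higher for 8 (all genes: 17.8% and 18.6%). No member passed a log2 difference of 1 at 24 h (2.59% of all genes did) and 3 did at 48 h (7.42%): NDUFB2, NDUFA4L2 and COX6B2, the last not without replicate 1 of HepG2 at 0 h, which held all 11 of its counts in that group. The medians were -0.18 and -0.17 over the members, and -0.01 and -0.04 over all genes.

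The genes that accompany the chain were followed in the same fit. All 13 protein-coding genes of the mitochondrial genome fell in APOA4-KO at 24 h and 48 h (medians -1.12 and -1.58 on the log2 scale), more than the nuclear members did. Of all genes, 22.8% and 25.9% were lower in that line at these times. In HepG2 11 of the 13 were higher and 1 lower at 24 h (median 0.32), beside 11.4% and 18.3% of all genes. At that time 39 of the 84 nuclear members were lower and 5 higher. All 13 mitochondrial genes were lower in HepG2 at 48 h (median -0.51), beside 14.6% of all genes. MT-CO3 and MT-CYB, subunits of complexes IV and III, fell furthest in APOA4-KO at 48 h (-2.20 and -2.16). The 54 assembly factors had 23 lower and 4 higher in APOA4-KO at 24 h (42.6% and 7.41%, beside 22.8% and 21.5% of all genes). At 48 h they had 25 lower and 9 higher in that line (46.3% and 16.7%, beside 25.9% and 23.9%). In HepG2 at 48 h 6 were lower and 2 higher (11.1% and 3.7%), no more than the 14.6% and 13.1% of all genes. FOXRED1 and NDUFAF8, which assist complex I assembly, were at -1.08 and -1.26 in APOA4-KO at 48 h, while COX10, an enzyme of haem A synthesis, was at 0.89. Mitochondrial ribosomal proteins went with the members. In APOA4-KO 53 of 78 were lower and 4 higher at 24 h (all genes: 22.8% and 21.5%), and 44 and 9 at 48 h (25.9% and 23.9%). Cytosolic ribosomal proteins took another course. In HepG2 at 24 h 53 of 92 were higher and 6 lower (all genes: 11.4% and 18.3%). In APOA4-KO 53 were lower and 5 higher at 24 h (all genes: 22.8% and 21.5%). At 48 h, where 23.9% of all genes were higher and 25.9% lower in that line, 62 were higher and 6 lower. The last count became 23 higher and 16 lower with library size as the only scaling.

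Among 10 tested transcriptional regulators, PPARGC1A, the coactivator that raises mitochondrial genes, was higher in APOA4-KO at 48 h than at 0 h (1.08 ± 0.07) and than in HepG2 (1.74 ± 0.07), while TFAM, which packages and transcribes mitochondrial DNA, was lower (-0.24 ± 0.05 and -0.43 ± 0.05). In all, 5 of these 10 were higher and 2 lower in APOA4-KO at 48 h against 0 h (all genes: 23.9% and 25.9%), and 2 and 2 in HepG2 (13.1% and 14.6%). The 11 genes of hypoxic adjustment had 9 higher in each line at 48 h (81.8%, beside 13.1% of all genes in HepG2 and 23.9% in APOA4-KO). They included PDK1, a kinase that inhibits pyruvate dehydrogenase (2.37 in HepG2 and 1.30 in APOA4-KO), and BNIP3, a mitophagy receptor (1.72 and 1.69). ISCU, the iron-sulphur scaffold, was lower in both (-0.24 and -0.57). MXI1 and BNIP3 had the largest rises of this list in APOA4-KO (2.44 and 1.69). Of 11 electron carriers and feeders, 4 were lower and 3 higher in APOA4-KO at 48 h (36.4% and 27.3%, near the 25.9% and 23.9% of all genes), with GPD2 (-2.28), which feeds electrons from glycerol phosphate, and CHDH (-1.11) the lowest. The uncoupling protein gene UCP2 was lower in APOA4-KO than in HepG2 at 48 h (-2.03).

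Over the 6 groups, the genes most like NDUFA4L2 by Pearson correlation of mean log2 CPM, out of 19275 genes searched, were ERRFI1-DT (r = 0.99), FGL1 (0.99), GPR155 (0.99), UBASH3B (0.99) and DISC1 (0.98). Those most like COX4I2 were C19orf67, TM4SF1, TCAF2P1, PPAN and ZHX2 (r from 0.99 to 1.00). These are descriptions over 6 points, and COX4I2 rests on few counts.

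Gene length moved with the groups and bears on these genes, since members are short: a median of 2624 bases against 4450 over all genes tested, with 41 of the 84 in the shortest of 4 equal length classes. FPKM values summed to 309651 to 313261 per library at 0 h and in HepG2 at 24 h, to 292590 to 292722 in HepG2 at 48 h and to 258095 to 264577 in APOA4-KO in hypoxia. Within the shortest class, the median log2 difference between APOA4-KO and HepG2 at 0 h was -0.19 for members and -0.06 for all genes, at 24 h -0.36 and -0.16, and at 48 h -0.37 and -0.15. For the line difference in the change to 24 h, however, the members of that class were at the level of all its genes (-0.14 for each), and for the change to 48 h they were at -0.20 beside -0.13. With each library's trend over length removed, 51 members were lower and 3 higher in APOA4-KO than in HepG2 at 24 h. At 48 h 43 were lower and 14 higher, and the medians were -0.25 and -0.18. At 0 h the counts became 27 lower and 5 higher (median -0.09). The line difference in the change to 24 h then gave 33 lower and 3 higher (median -0.203 beside -0.065 for all genes). That to 48 h gave 23 lower and 9 higher (-0.115 beside -0.026). Some splits of calls moved by over 10 percentage points. For the change to 48 h in APOA4-KO, 43 lower and 11 higher became 36 and 18 with the length trend removed, 33 and 17 with length and GC trends removed, 57 and 6 with library size as the only scaling, and 59 and 4 or 59 and 3 from FPKM. The line difference in that change went from 30 lower and 8 higher to 51 and 3 with library size and 52 and 1 from FPKM, and that to 24 h from 31 and 3 to 25 and 6 with library size and to 28 and 7 or 27 and 7 from FPKM. At 48 h APOA4-KO against HepG2 gave 65 lower and 3 higher from FPKM. Length and GC trends removed, the 0 h comparison gave 25 and 7, and HepG2 at 48 h gave 7 lower and 9 higher. Scaling by library size alone moved the median of all genes by over 0.1, from -0.04 to -0.19 between the lines at 48 h and from -0.07 to -0.23 in APOA4-KO at 48 h. Relative to all genes, the members' median there was -0.28 and -0.11 under either scaling.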

How the data were processed

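Poly(A) RNA from 18 samples was sequenced by the authors, who deposited a table of raw counts per gene and a table of FPKM (counts scaled to exon length and library size). Per the labels and the study's methods, reads were trimmed with fastp, aligned to GRCh38.p13 with HISAT2 and summarised with featureCounts; the labels also name StringTie. Strand and multimapping settings are not given in the sources used here. Deposited counts were filtered with filterByExpr (19743 genes kept), scaled by TMM, and tested with the quasi-likelihood test of edgeR 4.0.16 in R 4.3.3 with all 6 groups in one model and Benjamini-Hochberg adjustment over all genes tested; log2 fold changes are given ± SE. The procedure was tested on simulated data. CPM use TMM library sizes. Deposited FPKM served for levels per length and for limma 3.58.1 on log2(FPKM + 1) and log2(FPKM + 0.1), with genes at 1 FPKM or more in at least 3 libraries; such fold changes understate low genes. FPKM lengths cover all annotated exons of a gene, so comparisons of level between genes depend on them. Floors and shares cover counting error only. Other alternatives were DESeq2 1.42.0, RLE scaling, library size alone, no filter, the compared groups alone, a replicate block and leaving out each library; removal of length and GC trends was added after seeing the data. Members, lists and tests were chosen with earlier results of these data known. The text names the isoform sets, the SDH genes, members past a log2 fold change of 1, the 5 largest changes in each direction per comparison, and the extremes of each complex and list, plus a few members described after their values were seen (NDUFC2-KCTD14, UQCRHL and UQCR10 among them). Gene symbols were matched for 61757 of 61806 rows, promoters for 72 of 90 members.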

Additional observations from a re-analysis of the deposited data

Results flagged for a closer look

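The change from 0 h differed between the lines, by the test of that difference, for 34 members at 24 h and for 38 members at 48 h. Of these, 3 had a difference past 1 on the log2 scale, all at 48 h: NDUFB2 at -1.107, NDUFA4L2 at 2.584 and COX6B2 at 9.089. The COX6B2 value rests on 0 to 25 counts per library with 0 in all 3 knockout libraries at 0 h, so its size depends on the fit and is no estimate of a fold. It fell to 4.19 and did not pass without replicate 1 of HepG2 at 0 h. NDUFB2 shares exon bases with overlapping genes, and the part of these genes in its value was not tested. No group has more than 3 libraries, so no search for single outlying libraries within groups was made.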

How the results depend on the processing

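The labelled replicate numbers carry no shared culture or day, and same-numbered libraries did not deviate together (r from -0.144 to 0.051 over 45 pairs), so the numbers were not taken to pair the samples. With a replicate block, 41, 69 and 64 members were called between the lines at 0 h, 24 h and 48 h, 42 and 17 in HepG2 at 24 h and 48 h, 64 and 52 in APOA4-KO, and 32 and 35 for the line differences, each within 1.5 times the count without it.

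All counts of members called stayed within 1.5 times under every other alternative, except in HepG2 at 48 h, where the 17 calls became 10 to 13 when 1 library was left out, with 10 or 11 without any 0 h library or without replicate 1 or 3 of 48 h. Leaving out 1 library moved the members' medians to between -0.182 and -0.13 (APOA4-KO against HepG2 at 0 h), -0.388 and -0.3 (24 h), -0.333 and -0.288 (48 h), -0.212 and -0.167 (HepG2 at 24 h), -0.02 and 0.009 (HepG2 at 48 h), -0.355 and -0.284 (APOA4-KO at 24 h), -0.177 and -0.14 (APOA4-KO at 48 h), and -0.198 and -0.128 or -0.19 and -0.137 (line differences at 24 h and 48 h).

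Between the lines at 0 h the median was -0.14 with library size alone, -0.135 with RLE scaling and DESeq2, -0.133 from log2(FPKM + 1), -0.086 without the length trend, -0.093 without length and GC trends and -0.132 with the compared groups alone. At 24 h it was -0.257 from log2(FPKM + 1), -0.251 without the length trend and -0.24 without both. At 48 h it was -0.47 with library size, -0.27 with RLE and DESeq2, -0.438 and -0.469 from FPKM, -0.178 without the length trend and -0.177 without both. The median of all genes moved too. Relative to it, the members at 48 h were at -0.283 in the main fit, -0.282 with library size and -0.28 with RLE and DESeq2. From FPKM they were at -0.294 and -0.283, and without the trends at -0.187 and -0.183. In HepG2 at 24 h the members' median was -0.263 with library size, -0.155 with RLE and DESeq2, -0.254 and -0.275 from FPKM, -0.139 and -0.136 without the trends and -0.147 with the compared groups alone. Relative to all genes it was -0.156 in the main fit and with library size, -0.155 with RLE and DESeq2, and -0.151 and -0.142 from FPKM. Without the trends it was -0.143 and -0.147, and with the compared groups alone -0.158. In HepG2 at 48 h it was -0.014 with library size and from FPKM, -0.003 without the length trend and 0.001 with the compared groups alone. In APOA4-KO at 48 h it was -0.332 with library size, -0.129 with no filter, -0.298 and -0.351 from FPKM, and -0.119 and -0.126 without the trends. Relative to all genes it was -0.106 in the main fit, -0.107 with library size and -0.129 with no filter. From FPKM it was -0.179 and -0.198, and without the trends -0.08 and -0.085. The line difference at 24 h was -0.108 from log2(FPKM + 1), and that at 48 h -0.344 with library size, -0.301 and -0.329 from FPKM, and -0.115 and -0.133 without the trends.

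Of 3864 recomputed values of single genes, 3526 kept their direction and side of the threshold, 246 lost and 68 gained a call, and 24 changed sign. Between the lines at 24 h, NDUFA5 and UQCRB were each -0.014 without the length trend, and without both trends NDUFA5 was -0.36, UQCRB -0.309, NDUFS1 -0.104 and COX8A 0.085. At 48 h ATP5F1C was -0.005 and ATP5MC2 -0.015 with library size and log2(FPKM + 1), and -0.005 and -0.016 from log2(FPKM + 0.1). In APOA4-KO at 24 h NDUFS1 was -0.067 and UQCRB -0.085 without both trends. In APOA4-KO at 48 h SDHA was -0.011 with library size and both FPKM fits, COX7A2 -0.145 and -0.155 and COX8A -0.12 and -0.122 from FPKM. The COX7A2L line difference at 48 h was -0.159 with library size and -0.149 and -0.157 from FPKM. The length and GC corrections were chosen after seeing the data, and the cause of these changes was not tested. By CPM in place of FPKM, the COX4I2 share was 0% in HepG2 at 0 h, 0.0611% at 48 h, and 0.106% and 0.204% in APOA4-KO at 24 h and 48 h, and the NDUFA4L2 share in APOA4-KO at 24 h was 5.33%. Depth limits COX4I2 and COX6B2, with at most 33 counts per library.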
